A study of Sus scrofa with 96 samples.

Results

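Articular cartilage of knees whose torn anterior cruciate ligament (ACL) had been treated by surgery was compared with cartilage of knees in which the ligament had been cut and left alone. The question was whether restoring the ligament, by either of 2 operations, was accompanied by a different cartilage transcriptome. The libraries were chosen by tissue and treatment label, as 12 cartilage libraries of ACL reconstruction (RECON), 12 of ACL repair (REPAIR) and 11 of ACL transection alone (ACLT), 35 of the 96 libraries of the series. The 12 cartilage libraries of intact contralateral knees (CON) entered the same fit and served as a reference level.

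All animals were adolescent Yucatan minipigs, and all operated knees had their ACL cut 52 weeks before tissue was taken. RECON knees then received a fresh-frozen bone-patellar tendon-bone allograft, REPAIR knees an extracellular matrix scaffold soaked with the animal's own blood, and ACLT knees no ligament treatment. CON knees were the unoperated knees of animals operated on the other side, with no sham operation, and the 12 CON knees came from 12 of the 35 animals compared. Each of the 35 operated knees came from a different animal. The cartilage came from biopsies of the medial femoral condyle that were freed from bone. A 12th ACLT knee (ACLT 12) is not in the study's list of animals. It was left out of the comparison, and its values are given for graded transcripts where it lay outside the range of the other ACLT libraries, and for transcripts at 0 in a whole group.

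Articular cartilage is a tissue of chondrocytes scattered in a dense matrix of collagen II fibrils and the proteoglycan aggrecan. It has no blood vessels, and its cells turn the matrix over slowly. After a ligament tear the joint is loaded abnormally and inflamed, and cartilage can be lost over months to years in a disease called posttraumatic osteoarthritis. Reconstruction replaces the ligament with a graft, while scaffold-based repair aims at healing of the cut ends.

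The deposited tables list Ensembl pig transcripts by identifier. Gene names, gene lists and cell type markers were not analysed here, so transcripts are given by identifier and length, and the tissue label was not checked against cartilage markers. In bulk tissue, fewer cells that carry a transcript and less of it per cell cannot be told apart.

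The 35 libraries held between 9043812 and 21937198 estimated counts, with a median of 15260879. Depth did not separate the groups: surgery libraries averaged 15358084 ± 2701890 counts (SD, n = 24) and ACLT libraries 15789067 ± 2564620 (n = 11; permutation p = 0.659, two-sided). Transcripts with a count numbered 27593 ± 672 per surgery library and 27726 ± 820 per ACLT library. The 10 most abundant transcripts took 34.9% ± 4.23 of the counts in surgery libraries and 32.8% ± 4.91 in ACLT libraries. RNA integrity also did not pass a permutation test between the groups (p = 0.361, with the lower mean in surgery knees).

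Principal components were computed over the 500 transcripts that varied most between the 35 libraries, and components 1 and 2 took up 8.04% and 5.27% of that variance. Surgery and ACLT libraries were spread over the same range on component 1, from -28.5 to 31.7 and from -27 to 28.5. Component 4, with 4.28% of the variance, had the smallest permutation p of the 9 library measures tested, with a mean score of -4.33 ± 11.7 in surgery libraries and 9.45 ± 14.8 in ACLT libraries. Its permutation p was 0.00585 and its Benjamini-Hochberg adjusted p over the 9 measures was 0.0526, and scores of the groups overlapped, from -28.3 to 16.4 against -11.7 to 29.1.

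**Figure D1:**
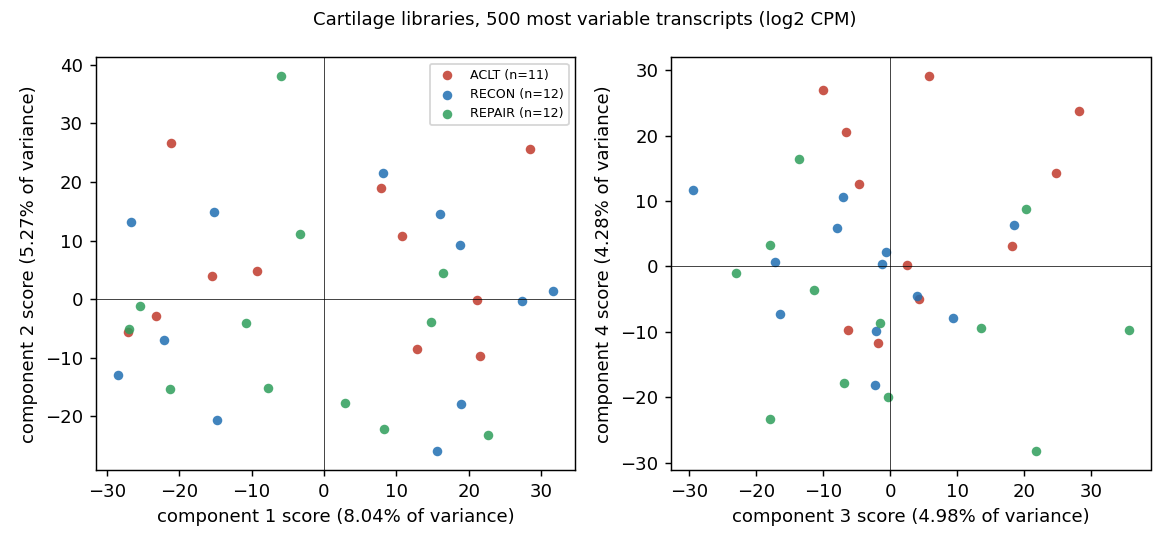
Scores of the 35 compared cartilage libraries on principal components 1 and 2 (left) and 3 and 4 (right) of log2 CPM, with 1 point per library colored by group. The groups lie over each other on components 1 and 2, and on component 4 the ACLT libraries reach 29.1 while the highest surgery library is at 16.4.

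No transcript passed the threshold between surgery and ACLT cartilage. In edgeR's quasi-likelihood test, 0 of 26159 transcripts tested (0%) had a Benjamini-Hochberg adjusted p under 0.05, for the mean of the RECON and REPAIR effects minus ACLT. The smallest adjusted p was 0.131. An unadjusted p under 0.05 was reached by 758 transcripts (2.9% of those tested), 385 (1.47%) with a higher and 373 (1.43%) with a lower level after surgery. That share is under the 0.05 that this cutoff would let through with no difference at all. Counts of unadjusted p-values are given here for scale and are not read as signal. No transcript had surgery and ACLT libraries that did not overlap (0%).

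The fitted differences were mostly small in size. A log2 fold change is the fitted difference on a scale where 1 stands for a doubling, and its median size over all transcripts was 0.115, with a median standard error (SE) of 0.178. For 18586 of the 26159 transcripts (71.1%) the whole 95% interval of the difference lay within 2-fold in either direction, and for 14684 (56.1%) within 1.5-fold. Precision followed the level, expressed as CPM, the count scaled to library size with trimmed mean of M-values (TMM) factors. Of the 9080 transcripts averaging 10 to 100 CPM, 95.8% had an interval within 2-fold, and of the 982 at 100 CPM or more, 97.9%. The largest set, 12676 transcripts at 1 to 10 CPM, had 65.4% within 2-fold and 45.7% within 1.5-fold. Of the 3421 transcripts under 1 CPM only 18.3% had an interval within 2-fold, so for those a doubling was mostly not detectable with these knees.

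**Figure D2:**
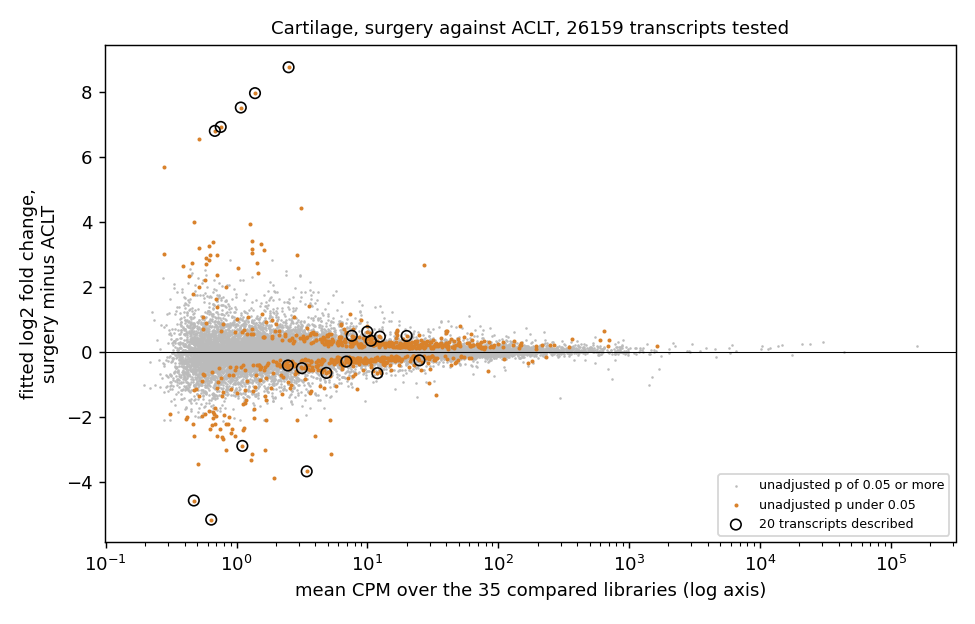
Fitted log2 fold change of surgery minus ACLT (vertical axis) against the mean CPM of the 35 libraries (log axis) for the 26159 transcripts tested, with 1 point per transcript. Orange points are the 758 transcripts with an unadjusted p under 0.05, circles mark the 20 transcripts described in the text, and the 9 circles far from 0 are transcripts with libraries at 0 or with 1 dominant library.

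Whether any transcript was called depended on the tool. DESeq2 called 5 transcripts from the same counts (934 with an unadjusted p under 0.05), and with 2 factors of unwanted variation it called 18. Among the 18 were 13 of the 20 transcripts described below. Of these 13, 5 were counted in every library and had no single library with most of the signal. edgeR with the same 2 factors called 0 (1330 with an unadjusted p under 0.05). Among DESeq2's 5 transcripts, 3 had a compared group without a count in any library, and 1 had most of its signal in 1 library. The remaining 1, ENSSSCT00000067536.1, is named here after its values were seen. Its mean was 0.234 CPM in ACLT, 1.37 in RECON and 0.224 in REPAIR, and edgeR gave it an adjusted p of 1. Joint fits that held synovium libraries as well called 73 cartilage transcripts, of which 68 averaged under 1 CPM in the 35 libraries, 56 had a compared group without a count and 3 passed the count filter within cartilage.

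The 12 most abundant cartilage transcripts held no difference past the threshold. On the TPM scale, which corrects for length and library size and so allows transcripts to be compared, ENSSSCT00000047570.3 (4883 bases) led with a mean of 69800 TPM, 6.98% of the total. In ACLT its lowest, median and highest values were 26800, 57800 and 110000 TPM, in RECON 31500, 68600 and 112000 TPM, and in REPAIR 34700, 77100 and 133000 TPM. The ranges covered each other, and the log2 fold change on counts was 0.19 with a 95% interval from -0.32 to 0.69 (adjusted p = 1, edgeR).

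ENSSSCT00000034816.4 (2543 bases) was the steadiest of the 12 most abundant transcripts in ACLT knees, with 8020, 9810 and 10200 TPM as lowest, median and highest. Surgery knees were more spread, with 6720, 10200 and 13700 TPM. Its log2 fold change of 0.19 (SE 0.10, interval -0.01 to 0.39) had the smallest unadjusted p of the 12, 0.0578 in edgeR. The widest interval belonged to ENSSSCT00000102025.1, a transcript of only 363 bases, with a log2 fold change of -0.51 (interval -1.41 to 0.38) and TPM values from 2150 to 33700 in ACLT and from 1490 to 22000 in surgery knees. All 12 had an adjusted p of 1, and the estimates of the other 10 lay between -0.10 and 0.29.

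Since nothing passed, the 10 transcripts with the smallest p-values in each direction, among those averaging at least 1 CPM in a compared group, are described as the leading differences, none of them past the threshold. They fell into 3 kinds. In 11 the transcript was counted in every one of the 35 libraries and the difference was graded, 7 had many libraries without a count and a whole group at 0, and in 2 a single ACLT library held most of the signal. Among all 26159 transcripts, 12 (0.0459%) had a compared group at 0 and 5 (0.0191%) had most of their signal in 1 library, and all of these were among the 758 with an unadjusted p under 0.05. A transcript with a group at 0 passed the count filter only through the groups where it was present, so it had to differ.

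The graded transcripts with more signal after surgery were 5. ENSSSCT00000003728.4 (1435 bases) had lowest, median and highest levels of 3.37, 6.27 and 8.5 CPM in ACLT, 6.07, 8.23 and 12.2 CPM in RECON, and 6.41, 7.91 and 9.8 CPM in REPAIR. Of the 24 surgery libraries 23 stood above the ACLT median and 9 above the highest ACLT library, so the groups overlapped in the upper ACLT range. The log2 fold change was 0.50 (SE 0.12, 95% interval 0.25 to 0.74, adjusted p = 0.665 in edgeR), at 0.54 for RECON and 0.45 for REPAIR.

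ENSSSCT00000006552.5 (4910 bases) ran from 11.2 through a median of 15.4 to 19.9 CPM in ACLT, from 9.67 through 20.4 to 26.6 CPM in RECON, and from 17.2 through 22.9 to 33 CPM in REPAIR. Of the 24 surgery libraries 16 were above every ACLT library, while RECON 7 was below all of them. The log2 fold change was 0.49 (SE 0.12, interval 0.25 to 0.73, adjusted p = 0.665 in edgeR). ACLT 12, not part of the comparison, held 24.4 CPM, above the other 11 ACLT libraries.

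ENSSSCT00000087163.2 (3252 bases) was the only graded transcript for which all 24 surgery libraries exceeded the ACLT median of 9.18 CPM. ACLT spanned 5.55 to 11 CPM, RECON 9.65 to 14.4 CPM around a median of 11.2, and REPAIR 9.62 to 14.1 CPM around 10.9. The difference was small in size, a log2 fold change of 0.34 (SE 0.08, interval 0.17 to 0.51, adjusted p = 0.665 in edgeR). ACLT 12 was at 18.2 CPM, higher than every one of the 35 libraries, and with it in the fit the estimate was the lowest of all alternatives at 0.23.

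ENSSSCT00000022487.4 (4166 bases) had 6.16, 9.97 and 13.1 CPM in ACLT, 9.37, 13.9 and 21.4 CPM in RECON and 8.97, 13.2 and 16.8 CPM in REPAIR. Of the surgery libraries 12 exceeded every ACLT library and the other 12 lay within the ACLT range. ENSSSCT00000100369.1 (1975 bases) had the widest ACLT range of the 5, with 2.78, 7.64 and 13.5 CPM, against 7.77, 10.5 and 15 CPM in RECON and 6.29, 12.1 and 15.6 CPM in REPAIR. Their log2 fold changes were 0.47 (interval 0.22 to 0.72) and 0.62 (interval 0.27 to 0.98), each with an adjusted p of 1 in edgeR. ACLT 12 stood at 16.5 CPM for ENSSSCT00000022487.4, above the other 11 ACLT libraries, and at 16.8 CPM for ENSSSCT00000100369.1, above all 35 libraries. With ACLT 12 in the fit the estimates were 0.39 and 0.48.

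Among the graded transcripts with less signal after surgery, ENSSSCT00000056069.3 (4740 bases) had the largest estimate. Its lowest, median and highest levels were 8.64, 16.1 and 21.6 CPM in ACLT, 4.55, 8.78 and 17.1 CPM in RECON, and 6.68, 9.26 and 15.1 CPM in REPAIR. Only 2 surgery libraries, both RECON, lay above the ACLT median, and 10 lay under the lowest ACLT library. The log2 fold change was -0.66 (SE 0.15, interval -0.96 to -0.35, adjusted p = 0.444 in edgeR), at -0.61 for RECON and -0.70 for REPAIR.

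ENSSSCT00000078850.2 (7675 bases) was the least variable of the 6. ACLT held 6.6, 7.64 and 9.42 CPM, RECON 5.55, 6.54 and 7.76 CPM and REPAIR 5.06, 6.03 and 7.71 CPM. In 14 of the 24 surgery libraries the level was under that of every ACLT library, and 2 exceeded the ACLT median. The log2 fold change was -0.30 (SE 0.07, interval -0.45 to -0.15, adjusted p = 0.665 in edgeR).

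ENSSSCT00000066684.1 (2816 bases) had 14 surgery libraries under the ACLT minimum as well, with 2.87, 3.89 and 5.28 CPM in ACLT, 1.47, 2.87 and 4.06 CPM in RECON and 1.56, 2.68 and 4.17 CPM in REPAIR. ENSSSCT00000102131.1 (5747 bases) had 4 ACLT libraries above every surgery library, with ACLT values of 2.53, 5.57 and 11.5 CPM, RECON at 2.22, 3.52 and 5.5 CPM and REPAIR at 2.33, 4.61 and 7.42 CPM. Their log2 fold changes were -0.50 (interval -0.78 to -0.22) and -0.65 (interval -1.01 to -0.29), both with an adjusted p of 1 in edgeR. ACLT 12 held 2.26 CPM of ENSSSCT00000066684.1, under the other 11 ACLT libraries, and with it in the fit the estimate was -0.45.

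ENSSSCT00000091276.2 (7939 bases), the most abundant of the 20 in CPM, had the smallest estimate of them, -0.26 (interval -0.41 to -0.11). Its levels were 23.8, 26.9 and 37.4 CPM in ACLT, 19.9, 24.1 and 30.2 CPM in RECON and 17.5, 22.3 and 27.8 CPM in REPAIR, and 13 surgery libraries were under the ACLT minimum. ENSSSCT00000072343.2 (2785 bases) had 1.94, 3.11 and 3.67 CPM in ACLT, 1.41, 2.14 and 2.8 CPM in RECON, and 1.59, 2.2 and 3.59 CPM in REPAIR. No RECON library and 2 REPAIR libraries passed its ACLT median, at a log2 fold change of -0.42 (interval -0.67 to -0.17). ACLT 12 was just under the ACLT minimum of this transcript, at 1.93 CPM, and the estimate with it was -0.37. Both transcripts had an adjusted p of 1 in edgeR.

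**Figure D3:**
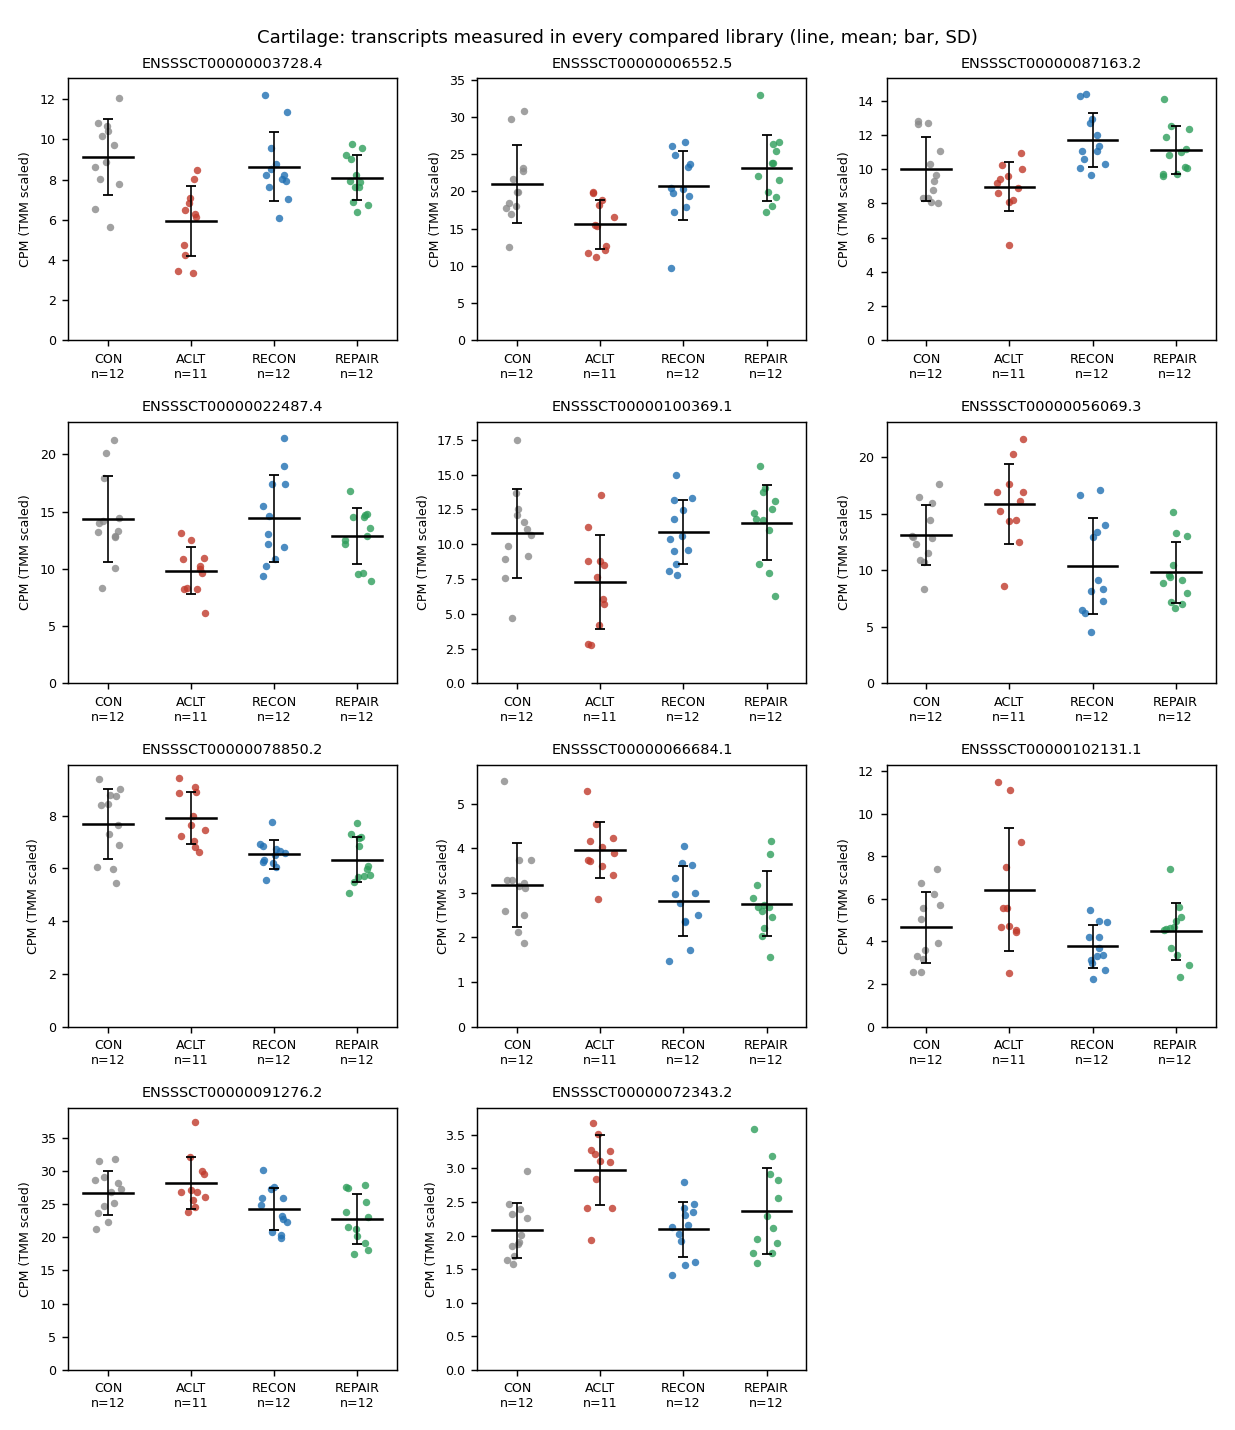
CPM of the 11 graded transcripts in each cartilage library, with 1 point per library, a line at the group mean and a bar of 1 SD (12 CON, 11 ACLT, 12 RECON and 12 REPAIR libraries, linear axes from 0). The first 5 panels have higher and the other 6 lower means in RECON and REPAIR than in ACLT, and in every panel the points of the groups overlap.

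**Figure D4:**
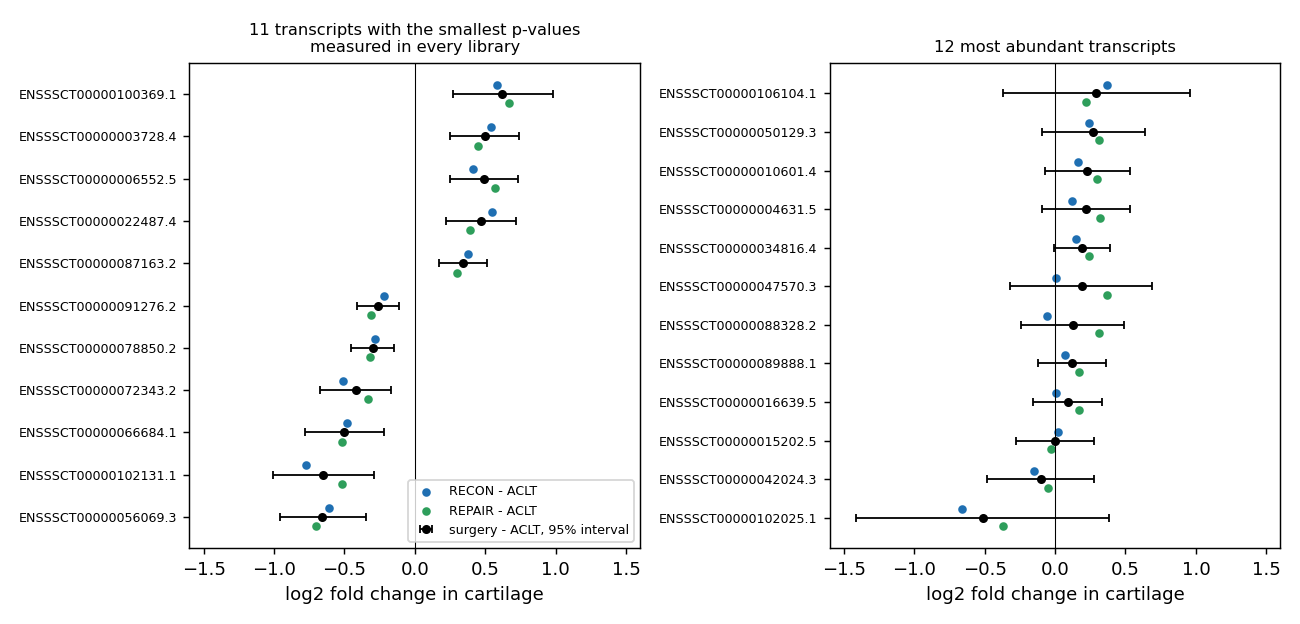
Log2 fold change in cartilage (horizontal axis) of surgery minus ACLT with its 95% interval (black), and of RECON (blue) and REPAIR (green) minus ACLT, for the 11 graded transcripts (left) and the 12 most abundant transcripts (right). The intervals on the left exclude 0 because these transcripts were picked by p-value, and all 12 on the right include 0.

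The CON knees set these levels in context, although CON, ACLT and surgery share libraries across these comparisons and no more is read from them than the values. ENSSSCT00000003728.4 averaged 9.11 ± 1.89 CPM in CON knees (SD, n = 12), 5.92 ± 1.75 in ACLT (n = 11) and 8.36 ± 1.45 in surgery knees (n = 24). ENSSSCT00000022487.4 averaged 14.4 ± 3.76, 9.84 ± 2.02 and 13.6 ± 3.21 CPM in the same order. Likewise ENSSSCT00000072343.2 averaged 2.08 ± 0.409 in CON, 2.98 ± 0.526 in ACLT and 2.23 ± 0.547 CPM in surgery knees. For these the ACLT mean was the lowest or the highest of the 4 groups. The same held for every graded transcript, all picked for a difference between surgery and ACLT. The log2 differences of ACLT minus CON for the 3 were -0.62, -0.54 and 0.52 (adjusted p = 0.178, 0.272 and 0.312 in edgeR), none past the threshold.

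The CON mean lay nearer to ACLT than to surgery for ENSSSCT00000078850.2, with 7.67 ± 1.32 CPM in CON, 7.91 ± 0.997 in ACLT and 6.43 ± 0.713 in surgery knees. ENSSSCT00000091276.2 also had CON beside ACLT, at 26.7 ± 3.37 and 28.2 ± 3.92 CPM, with 23.5 ± 3.48 in surgery knees. Surgery minus CON was -0.26 for the former (adjusted p = 0.122 in edgeR) and -0.19 for the latter (adjusted p = 0.354).

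Across all transcripts, 58 of 26159 (0.222%) passed between surgery and CON cartilage, 32 higher and 26 lower, and 0 (0%) passed between ACLT and CON cartilage (1463, or 5.59%, with an unadjusted p under 0.05, smallest adjusted p 0.127). The surgery group held 24 libraries and the ACLT group 11, so the second comparison had less precision. These fits treat CON knees as independent, although each shared an animal with an operated knee. With the animal as a block, an alternative chosen after seeing the data that rests on 4 animals per operated group and 9 residual degrees of freedom, 1 transcript passed between surgery and CON (1579 with an unadjusted p under 0.05). All 58 kept their direction with the block, and 50 had an unadjusted p under 0.05. Neither count is a separate test, since the 58 were picked by p-value in the same libraries. ACLT against CON gave 0 with the block (864 with an unadjusted p under 0.05). Among the 58, the smallest unadjusted p for surgery against ACLT was 0.0119, and each had an adjusted p of 1 for it. The 1 transcript that also passed with the block was ENSSSCT00000004890.5 (6601 bases): CON averaged 113 ± 27.7 CPM, ACLT 185 ± 49.8, RECON 201 ± 51.4 and REPAIR 179 ± 31.3. It rose by a log2 fold change of 0.75 in surgery knees against CON (adjusted p = 0.00438, edgeR), and by 0.90 with the block (adjusted p = 0.0388). Surgery and ACLT levels differed by 0.03 (interval -0.22 to 0.28).

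ENSSSCT00000086389.1 (6732 bases) fell in surgery knees against CON by 1.67 on the log2 scale (adjusted p = 0.00438, edgeR) without the block, and with it the estimate was -1.46 (adjusted p = 0.335). CON libraries ran from 1.95 to 24.8 CPM, ACLT from 2.5 to 10.7, RECON from 1.13 to 4.62 and REPAIR from 1.58 to 9.5 CPM. Its surgery minus ACLT estimate was -0.63 (interval -1.22 to -0.05, adjusted p = 1), with the RECON libraries below those of REPAIR on average, 2.91 ± 1.25 against 4.8 ± 2.38 CPM.

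Among the 20, 7 transcripts had libraries without a single count beside libraries at several CPM. For 5 of them every one of the 11 ACLT libraries was at 0. ENSSSCT00000090288.2 (4518 bases) was counted in 7 of 12 RECON and 6 of 12 REPAIR libraries, at 1.67 to 5.88 CPM where present, and in 6 of 12 CON libraries up to 5.18 CPM. The surgery mean of 2.02 CPM was at least 11-fold higher than the 11 ACLT libraries, taking 3 counts per library as their floor. Each such bound given for the 7 covers counting in the compared libraries only, not the spread between animals. It is not a test, since a transcript with a group at 0 had to differ. Its adjusted p was 0.444 in edgeR and 0.00118 in DESeq2.

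ACLT 12 changed this picture for the same transcript, since it held 5.72 CPM, about the level of the highest RECON library. With ACLT 12 added, its log2 fold change was 2.09 and its unadjusted p 0.087 in edgeR. In synovium of the same knees 2 of 11 ACLT and 9 of 24 surgery libraries had counts, so ACLT knees could carry the transcript in the other tissue. Cartilage and synovium of a knee were in the same state in 23 of 35 knees, 6 with counts in both and 17 with none. The number to be met without any link was not computed.

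ENSSSCT00000062146.3 (2711 bases) was present in 5 RECON and 3 REPAIR libraries, from 3.63 to 37.7 CPM, and in 7 of 12 CON libraries up to 35.7 CPM. REPAIR 9 alone held 43.1% of its signal over the 35 libraries. The surgery mean of 3.64 CPM was at least 19.8-fold higher than the ACLT floor. Without REPAIR 9 the mean was 2.16 CPM, at least 11.8-fold higher. The transcript did not pass the threshold in edgeR (unadjusted p = 0.000559), while DESeq2 gave it an adjusted p of 2.39e-28. ACLT 12 held none of it. In synovium the pattern was unlike that of cartilage, with counts in 5 of 11 ACLT libraries, up to 45.5 CPM, and in none of the 12 RECON libraries.

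ENSSSCT00000058945.3 (6495 bases), ENSSSCT00000070388.2 (5829 bases) and ENSSSCT00000100298.1 (2424 bases) were counted in 8, 8 and 7 of the 24 surgery libraries, and in 7, 5 and 5 of the 12 CON libraries. Their surgery means of 1.1, 0.994 and 1.57 CPM were at least 6.01-fold, 5.42-fold and 8.56-fold higher than the ACLT floor. The first rested in part on RECON 11, without which the mean was 0.655 CPM and at least 3.57-fold higher. RECON held more libraries with counts for the first (5 against 3 in REPAIR) and REPAIR for the second (6 against 2). ACLT 12 had 2.42 and 1.69 CPM of the first 2 and none of the third, so the bounds describe the 11 compared ACLT libraries only. All 3 had an adjusted p of 1 in edgeR.

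The other 2 of the 7 went the other way and were at 0 in all 12 RECON libraries. ENSSSCT00000040726.2 (3714 bases) was counted in 4 of 11 ACLT, 3 of 12 REPAIR and 5 of 12 CON libraries, up to 5.93 CPM in ACLT 4 and 6.8 CPM in CON 5. Its ACLT mean of 1.73 CPM was at least 8.96-fold higher than the RECON floor, and REPAIR averaged 0.28 ± 0.539 CPM. ENSSSCT00000041406.3 (7255 bases) had the same numbers of libraries with counts, 4, 3 and 5, with an ACLT mean of 1.18 CPM that was at least 6.1-fold higher than the RECON floor. Without ACLT 2 that mean was 0.762 CPM, at least 3.95-fold higher. ACLT 12 held none of either. Their adjusted p-values were 0.665 and 1 in edgeR.

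In the same knees, the 7 transcripts were present in synovium of 4 to 11 of the 35 knees. Each was counted in at least 1 ACLT synovium library. Between both knees of an animal, 12 of which had a CON and an operated cartilage library, the states matched in 5 to 7 animals. The number to be met without any link was not computed here either. How the counting program divides reads between similar transcripts of a gene bears on such values, and its part was not tested.

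ENSSSCT00000047495.3 (2795 bases) had the smallest p-value of all transcripts, 5.01e-06, and rested on 1 library. ACLT 1 held 95.8 CPM, 79.7% of the signal over the 35 libraries, while the other 10 ACLT libraries averaged 0.621 ± 0.534 CPM and the surgery libraries 0.759 ± 1.29 CPM (n = 24). The median was 0.402 CPM in ACLT and 0.389 in surgery knees. The log2 fold change was -3.68 (SE 0.71, adjusted p = 0.131 in edgeR), and without ACLT 1 it was 0.22 with an unadjusted p of 0.68. Leaving out REPAIR 11, the highest surgery library at 6.52 CPM, made it the 1 transcript past the threshold (adjusted p = 0.00657).

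High libraries of this transcript were not limited to that knee. CON cartilage ran up to 6.03 CPM, and in synovium single libraries reached 1300 CPM in CON, 319 in ACLT, 35.9 in RECON and 1280 in REPAIR knees. The CON mean was 258 ± 362 CPM in synovium and 1.99 ± 1.94 in cartilage. ACLT 1 was also the highest ACLT cartilage library for ENSSSCT00000070934.2, at 19.4 CPM in the joint fit. ACLT synovium averaged 247 ± 135 CPM of that transcript. For ENSSSCT00000038623.3, at 24.4 ± 12.9 CPM in ACLT synovium, the highest was ACLT 9, at 2.57 CPM. Both were named after their values were seen, and the reason was not tested. ENSSSCT00000088629.2 (1682 bases) also rested on 1 library, with ACLT 5 at 23.4 CPM, 60.5% of its signal, and the next ACLT library at 2.01 CPM. Without ACLT 5 its log2 fold change went from -2.89 to -0.87, with an unadjusted p of 0.151 in edgeR. Its medians were 0.46 CPM in ACLT and 0.314 in surgery knees.

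**Figure D5:**
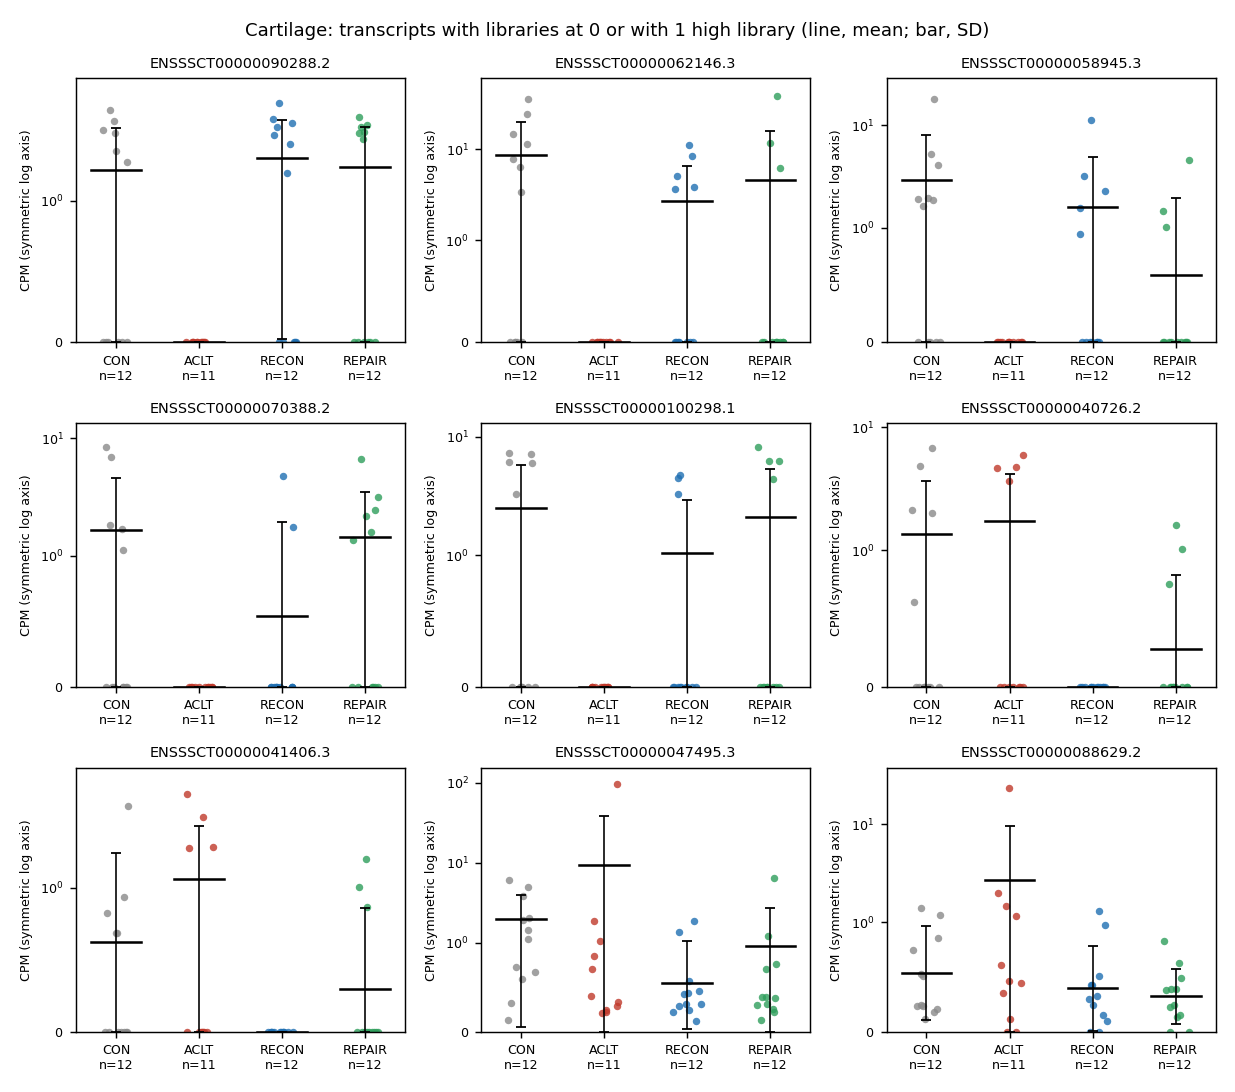
CPM of the 7 transcripts with many libraries at 0 and the 2 with 1 high ACLT library (last 2 panels), with 1 point per cartilage library, a line at the group mean and a bar of 1 SD cut at 0, on a symmetric log axis that is linear below 1 CPM. In the first 5 panels all 11 ACLT points lie at 0, in the next 2 all 12 RECON points do, and in the last 2 a single ACLT point stands at 95.8 and 23.4 CPM.

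Both operations were then tested separately against the same ACLT libraries, so these results share their controls. RECON against ACLT gave 0 calls of 26159 (0%) in edgeR, with 731 unadjusted p-values under 0.05 (2.79%) and a smallest adjusted p of 0.814, while DESeq2 called 4. REPAIR against ACLT gave 0 calls (0%), with 1330 unadjusted p-values under 0.05 (5.08%) and a smallest adjusted p of 0.67, while DESeq2 called 8. The leading graded transcripts of REPAIR against ACLT, named after their values were seen, were ENSSSCT00000096719.1 (2703 bases) and ENSSSCT00000041388.2 (2424 bases).

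ENSSSCT00000096719.1 had 4.82, 5.9 and 9.04 CPM as lowest, median and highest in ACLT, 4.97, 6.71 and 9.33 CPM in RECON and 6.78, 9.09 and 10.6 CPM in REPAIR. ENSSSCT00000041388.2 had 2.09, 2.96 and 3.95 CPM in ACLT, 1.44, 2.58 and 3.62 CPM in RECON and 1, 1.58 and 2.82 CPM in REPAIR. In each the RECON median lay between the other 2, and all ranges overlapped. The REPAIR minus ACLT estimates were 0.49 and -0.71, both with an adjusted p of 0.67 in edgeR.

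The direct contrast of REPAIR with RECON cartilage came closest to the threshold. In edgeR 0 of 26159 transcripts passed (0%), 1828 (6.99%) had an unadjusted p under 0.05, and 2 had an adjusted p of 0.0586. ENSSSCT00000037282.3 (2127 bases) held 3.56, 4.49 and 5.46 CPM in RECON, 2.2, 2.66 and 4.33 CPM in REPAIR and 2.63, 3.93 and 5.18 CPM in ACLT. ENSSSCT00000053969.2 (6999 bases) held 5.13, 7.89 and 10.2 CPM in RECON, 4.45, 5.24 and 7.41 CPM in REPAIR and 5.45, 6.96 and 8.11 CPM in ACLT. In both the ACLT median lay between RECON above and REPAIR below, and the REPAIR minus RECON estimates were -0.64 and -0.51.

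This contrast depended on the tool and on single libraries. DESeq2 called 35 transcripts (13 higher and 22 lower in REPAIR), edgeR with 2 factors of unwanted variation 99, and DESeq2 with the same factors 391. Leaving out RECON 5, REPAIR 3 or REPAIR 7 brought ENSSSCT00000053969.2 past the threshold in edgeR (adjusted p = 0.00907, 0.0236 and 0.0253), leaving out REPAIR 10 brought ENSSSCT00000037282.3 past it (0.0116), and leaving out REPAIR 1 made 2 calls. With ACLT 12 in the fit 2 transcripts were called.

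In synovium of the same knees, the lining tissue of the joint that makes its fluid, surgery against ACLT gave 0 calls of 27861 (0%) in edgeR. There 651 transcripts (2.34%) had an unadjusted p under 0.05, the smallest adjusted p was 0.404, and DESeq2 called 15. The graded cartilage transcripts had synovial estimates of their own: 0.38 for ENSSSCT00000003728.4 (6.7 ± 2.49 CPM in surgery and 5.15 ± 2.68 in ACLT synovium), 0.05 for ENSSSCT00000056069.3 and 0 for ENSSSCT00000078850.2, each with an adjusted p of 1.

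A test of the difference itself, the surgery minus ACLT effect in cartilage minus that in synovium, called 22 of 30447 transcripts (0.0723%), 7 higher and 15 lower, in a fit of both tissues, and 1242 (4.08%) had an unadjusted p under 0.05. Each of the 22 had a compared group of a tissue without a count in any library, and 2 of them passed the count filter in both tissues. With the knee as a replicate block, which matches both tissues of a knee, 0 were called (864 unadjusted p-values under 0.05). Of the 20 cartilage transcripts described above, only ENSSSCT00000062146.3 was among the 22, with ACLT cartilage and RECON synovium both at 0. None of the 11 graded transcripts passed this test, the smallest adjusted p among them being 0.647, for ENSSSCT00000056069.3.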

How the data were processed

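RNA from 96 libraries (cartilage and synovium of 4 groups) was made with ribosomal RNA depletion and sequenced as paired reads. Per the study's methods and the submitters' processing notes, the authors checked reads with FastQC 0.11.9 and MultiQC 1.12 and quantified them with Salmon 1.8.0 against Sscrofa11.1 transcripts. The deposited estimated counts of 46295 transcripts are not normalized between libraries, and the TPM values deposited by the authors were used only to describe the most abundant transcripts. Salmon divides reads between similar transcripts, and no measure of that uncertainty was used.

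The expected counts, rounded to whole numbers, were analysed with edgeR 4.0.16 under R 4.3.3 (TMM scaling, filterByExpr with a minimum count of 10, glmQLFit and glmQLFTest) in 47 cartilage libraries of 4 groups. The contrast was the mean of RECON and REPAIR minus ACLT, and the threshold an adjusted p under 0.05 (Benjamini-Hochberg over all transcripts tested). Standard errors and 95% intervals are not given where a group had no count. CPM values are scaled within each fit. Synovium had its own fit, and the difference between tissues a fit of 94 libraries. Library measures were compared by two-sided permutation tests. Those intervals assume that each knee is an independent sample.

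The transcripts described were the 10 with the smallest p-values in each direction among those whose mean reached 1 CPM in a compared group. Other transcripts named are the 12 most abundant, the leaders of the separate contrasts and examples from the contrast with CON, and these were chosen after their values were seen. The libraries, lists and tests were chosen with earlier results of these data known. The planned gene lists and markers need gene names and were not applied.

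Alternatives were DESeq2 size factors, no filterByExpr (a count in at least 2 libraries instead), DESeq2 1.42.0, 2 RUVr factors from deviance residuals in DESeq2 or edgeR, only the 35 compared libraries, both tissues in 1 fit of 8 groups, ACLT 12 added, RNA integrity or sex as a covariate, a replicate block, RECON and REPAIR as 1 group, an effective length offset, robust dispersions and leaving out each of the 35 knees. For the contrasts with CON, a fit with the animal as a block was chosen after seeing the data. The procedure was also run on simulated counts, drawn independently for each library around 1 mean per transcript, with a set of transcripts changed in surgery libraries. The simulation did not model how reads are divided between similar transcripts. Its outcome is not reported here, and nothing is concluded from it. No pair of libraries of a group agreed within sampling noise (lowest chi-square per degree of freedom 26.6). Same-numbered cartilage libraries came from different animals, and for 34 such pairs the mean correlation of their deviations was 0.0192 (-0.108 to 0.137, 5 over 0.1), so the numbers do not pair them. Cartilage and synovium libraries of a number come from 1 knee according to the study's list.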

Additional observations from a re-analysis of the deposited data

Results flagged for a closer look

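In edgeR's test of the difference itself, 22 transcripts passed for surgery against ACLT in cartilage minus synovium. Every one of the 22 had a compared group without a count in any library, and with the knee as a replicate block 0 passed. Only 2 of the 22 passed the count filter within both tissues. An example named after its values were seen is ENSSSCT00000050067.3, which did not pass it in cartilage. There 1 ACLT library held 8.96 CPM, and RECON and REPAIR had no count. Its synovium means were 110 CPM in ACLT, 104 in RECON and 99.2 in REPAIR. With the block 17 of the 22 had an unadjusted p under 0.05. That is not a separate test, since the 22 were picked by p-value in the same libraries. Among the transcripts described for cartilage, ENSSSCT00000062146.3 was flagged this way, with a fitted log2 difference of 13.69 (adjusted p = 0.0265), a value that depends on the prior count because ACLT cartilage and RECON synovium had no count in any library. In the scaling of that fit, the cartilage means were 0 in ACLT, 3.17 ± 4.58 in RECON and 5.35 ± 12.7 CPM in REPAIR, and the synovium means 7 ± 11.6, 0 and 7.26 ± 12.6 CPM.

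The cartilage library of ACLT 12, which entered no comparison, exceeded all 12 CON libraries for 2 of the 20 transcripts. The share of all transcripts for which it did so was not counted, so no more is read from the 2 than their values. It held 5.72 CPM of ENSSSCT00000090288.2, for which the other 11 ACLT libraries were at 0 and the highest CON library at 5.18 CPM. It held 18.2 CPM of ENSSSCT00000087163.2, against at most 11 CPM in the other ACLT libraries and 12.8 CPM in CON.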

How the results depend on the processing

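For surgery against ACLT in cartilage, edgeR called 0 transcripts under every alternative except no filterByExpr (21), the joint fit of both tissues (73) and leaving out 1 of the 35 knees (0 to 1, the 1 being ENSSSCT00000047495.3 without REPAIR 11). DESeq2 called 5, and 18 with RUVr factors. RECON against ACLT gave 4 in DESeq2, 12 with RUVr factors in DESeq2 and 20 in the joint fit. REPAIR against ACLT gave 8, 79 and 15 in the same order. Leaving out single knees gave 0 to 0 for both. REPAIR against RECON gave 35 in DESeq2, 391 and 99 with RUVr factors in DESeq2 and edgeR, 26 in the joint fit, 2 with ACLT 12, 3 with the effective length offset and 0 to 2 without single knees. Synovium gave 15 in DESeq2 and 17 in the joint fit. The difference between tissues gave 144 in DESeq2, and 28 with ACLT 12. Of the 21 and 73 transcripts, 1 and 3 passed the cartilage count filter. The causes of the other shifts were not tested.

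With the replicate number as a block, each of the 4 cartilage contrasts had 0 calls. With the knee as a replicate block the difference between tissues had 0 calls, with trended dispersions from the fit without the block. With the animal as a block, added after seeing the data and with dispersions taken the same way, surgery against CON had 1 call in place of 58, and ACLT against CON had 0 as without it.

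The 20 transcripts had 964 values under the alternatives, with none where a fit did not test the transcript. 942 kept direction and stayed short of the threshold, 21 passed it in the same direction, and 1 reversed: ENSSSCT00000047495.3 was at 0.22 without ACLT 1 (and at -4.2 without REPAIR 11). Keeping direction is not a separate test, since the 20 were picked by p-value and direction in the same libraries. Of the alternatives, 35 left out only 1 knee each. Fewer intervals lay within 2-fold for transcripts under 1 CPM than for those of 10 CPM or more, and contrasts with ACLT rest on 11 of its knees.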
